A study of Mus musculus with 6 samples.

Results

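The genes examined here encode the working parts of the lysosome and of autophagy in acinar cells, which make and secrete the digestive enzymes of the pancreas. They are the single-letter cathepsins, the subunits of the vacuolar proton pump, the numbered Atg genes, Lamp1 and Lamp2, and Sqstm1, Map1lc3a, Map1lc3b, Becn1, Ulk1, Tfeb and Vmp1. Members were chosen by gene symbol alone. Of 71 matching symbols in the mouse annotation, 3 were dropped as pseudogenes, 1 of which the annotation lists as protein-coding, and the other 68 were all among the 55414 genes of the count tables. They comprise 18 cathepsins, 9 genes of the membrane-embedded V0 sector and 14 of the cytosolic V1 sector of the pump, 18 Atg genes, the 2 LAMP genes and the 7 singly chosen autophagy genes. Atp6v1fnb matched by name only: it is a neighbour of Atp6v1f and not a known pump subunit.

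Expression was measured by poly-A RNA sequencing in untreated adult mouse acinar preparations, with 1 library each. The 3 control preparations have the genotype Pdx1Cre;Trip12+/+ and the 3 knockout preparations Pdx1Cre;Trip12fl/fl, in which both Trip12 alleles are flanked by loxP sites. Both groups therefore carry the Cre recombinase driven by the Pdx1 promoter, which is active in the early pancreatic epithelium and so not in acinar cells alone. TRIP12 is an E3 ubiquitin ligase, and the comparison asks what its loss does to acinar gene expression. The labels number the preparations as biological replicates but do not say how many animals each came from, so p-values measure the spread between these preparations. In such bulk samples fewer cells of a type and less RNA per cell cannot be told apart.

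Lysosomes degrade cargo with acid hydrolases, among them the cathepsins, and the V-type proton pump uses ATP to acidify them. Autophagy delivers cytoplasm to lysosomes: the ULK1 kinase and the Beclin 1 lipid kinase complex start a membrane, and the ATG12-ATG5-ATG16L1 complex then attaches LC3 to it. In acinar cells the pathway is known from pancreatitis. Cathepsin B can activate trypsinogen inside the cell, cathepsin L can degrade it, and loss of Atg5, Atg7 or Lamp2 in the mouse pancreas causes pancreatic disease.

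The libraries held 31019500 to 34041901 gene counts. Trip12 was checked first and had control values of 29.0, 22.3 and 26.4 normalised CPM, counts scaled to a common library size, and knockout values of 14.4, 14.7 and 13.0 CPM. Values are given in the order of replicates 1, 2 and 3 throughout. Its log2 fold change was -0.89 (SE 0.14, edgeR quasi-likelihood test, adjusted p = 0.0256), and counts over the whole gene do not show which exons remain. Adding up 12 macrophage marker genes gave control sums of 63.4, 20.3 and 26.5 CPM and knockout sums of 63.1, 18.6 and 86.8 CPM, so these markers varied as much within the groups as between them. None of the 12 was at 0 in every library. The 10 acinar markers together gave 352195 to 470747 CPM in control and 314341 to 326392 CPM in knockout, without overlap, and 9 of the 10 had lower means in knockout. With the replicate number of the labels as a block, so that same-numbered libraries are compared, edgeR called 2 of 10 acinar, 5 of 8 tested ductal, 4 of 11 tested macrophage and 1 of 9 islet markers, against 5.98% of all genes. The part of these markers in the members' values was not tested. By Xist and Y-linked counts, control replicates 2 and 3 were female and the other 4 libraries male, so sex and genotype are partly confounded. A fit with sex as a covariate therefore compares the knockouts with control replicate 1 alone. Leaving out control replicate 1 sets female controls against male knockouts, so sex and genotype cannot be told apart there.

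Cathepsin transcripts differed widely in level in the control preparations. To compare genes with one another, CPM was divided by the length of each gene's merged exons in kilobases. On that scale cathepsin D, the main aspartic protease of the lysosome, was the highest cathepsin at 22.9 CPM per kb ± 3.28 (SD, n = 3) in control. Cathepsin B (13.4 ± 1.56), cathepsin L (13.4 ± 1.81) and the carboxypeptidase cathepsin Z (10.3 ± 1.52) followed, and the levels of these 3 genes were within each other's spread or close to it. Cathepsin A, also a carboxypeptidase, stood at 5.48 CPM per kb ± 0.194 and cathepsin C, which activates granule proteases of immune cells, at 2.99 ± 0.543. The order depends on the length used, since per kilobase of coding sequence Ctsl (86.6 CPM per kb) and Ctsb (79.7) stood above Ctsd (43.8).

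Tissue-restricted members were at or near 0. Ctsj, Ctsm, Ctsq and Ctsr, which belong to a placental cluster of cathepsins, had no count in any library, nor had the testis pump subunit gene Atp6v1e2 or Atp6v1fnb. A count of 0 allows up to 3 counts, or 0.0803 to 0.123 CPM depending on the library, by counting error only. Another 7 members were too low to test. The kidney and osteoclast pump subunits Atp6v0a4, Atp6v1b1, Atp6v1g3 and Atp6v0d2, with Atp6v1c2 and the neutrophil protease gene Ctsg, had at most 10 counts in any library. Ctse, a gastric and immune-cell cathepsin, had 76 counts in control replicate 1 and at most 6 in each of the other 5 libraries. The remaining 55 members were tested.

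Among the pump genes, the V1 subunit genes Atp6v1f (17.5 CPM per kb ± 1.59, SD, n = 3) and Atp6v1g1 (14.1 ± 2.28) and the V0 genes Atp6v0b (15.5 ± 3.54) and Atp6v0d1 (14.5 ± 2.02) were highest in control, and neighbours in that order did not differ beyond their spread. The lowest tested subunit genes were Atp6v0e2 (0.439 ± 0.171) in V0 and Atp6v1g2 (0.126 ± 0.0325), a neuronal form, in V1. Atp6v1g2 overlaps Nfkbil1 on the other strand, and adding both strands' counts gave 6.69 times its unstranded count, so its level leaves out many ambiguous reads. The V1 catalytic subunit gene Atp6v1a stood at 2.49 CPM per kb ± 0.176 and its partner Atp6v1b2 at 4.62 ± 0.219. Lamp1 reached 42.2 CPM per kb ± 5.38 in control, the highest level of any member on the merged exon scale. It overlaps Grtp1 on the other strand, and both strands' counts came to 1.395 times its unstranded count, so its values leave out ambiguous reads. Lamp2 reached 5.41 ± 0.88. The cargo receptor gene Sqstm1 (26.3 ± 1.45) stood above the LC3 genes Map1lc3b (10.7 ± 2.01) and Map1lc3a (10.2 ± 2.12). Per kilobase of coding sequence this order turned, with Map1lc3b at 155 CPM per kb, Lamp1 at 92.8 and Sqstm1 at 66.5. The lowest of these 7 autophagy genes was Tfeb, a transcription factor for lysosomal genes, at 0.777 CPM per kb ± 0.0961.

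**Figure D1:**
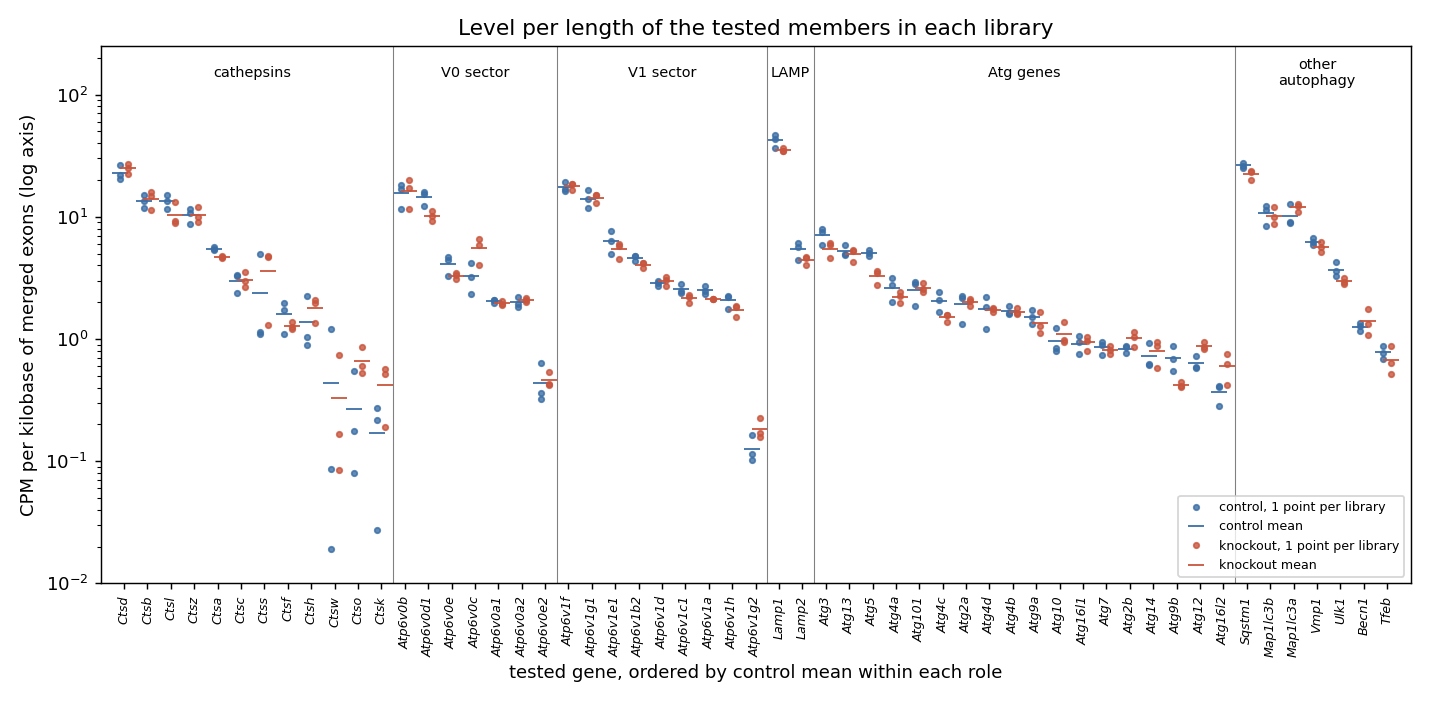
Level of each of the 55 tested members in each library, as normalised CPM per kilobase of merged exons on a log axis; points are libraries and short lines are means of 3 control (blue) or 3 knockout (red) libraries. Lamp1, Sqstm1 and Ctsd stand highest, and the groups' points overlap or lie close together for most genes.

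TFEB and its relatives are known to bind a short palindrome in the promoters of lysosomal genes, the CLEAR element, and the members were therefore searched for its core TCACGTGA. The motif reads the same on both strands and contains the E-box CACGTG. RefSeq promoters of build GRCm38.p6, which run from 250 bases before to 50 bases after a gene's start, were found for 54 of the 68 members. The core was present in 6 of these 54 (11.1%), and in 1.12% of all 27025 genes with a promoter in the table. CACGTG alone was in 13 of 54 (24.1%) against 8.09% of all genes. The matches are shown in 30-base windows, 5′ to 3′ on the gene's strand, with the core in capitals.
Ctsd: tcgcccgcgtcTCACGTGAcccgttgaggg
Ctsa, upstream match: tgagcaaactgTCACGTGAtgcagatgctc
Ctsa, downstream match: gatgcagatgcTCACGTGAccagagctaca
Atp6v0d1: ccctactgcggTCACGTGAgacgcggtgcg
Atp6v0e: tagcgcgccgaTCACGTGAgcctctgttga
Atp6v1a: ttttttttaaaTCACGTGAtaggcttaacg
Atg3: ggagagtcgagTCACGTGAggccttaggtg
The window of Ctsd is chr7:142387908-142387937 on the minus strand and its core begins 99 bases before the annotated start. The Ctsa windows are chr2:164833749-164833778 and chr2:164833766-164833795 on the plus strand, with cores beginning 13 bases before and 4 bases after the start. For Atp6v0d1 the window is chr8:105566050-105566079 on the minus strand, 4 bases before the start. Those of Atp6v0e, chr17:26676387-26676416 on the plus strand, and Atp6v1a, chr16:44139373-44139402 on the minus strand, begin their cores 2 bases after and 132 bases before it. The Atg3 window is chr16:45158746-45158775 on the plus strand, with the core 72 bases before the start. A match describes these letters only and does not show that a factor binds there. The counts were made on another build, and these coordinates locate the windows alone.

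No member passed the test of knockout against control that was fitted across all genes. With edgeR, and Benjamini-Hochberg adjustment over 13115 genes, 0 of the 55 tested members had an adjusted p under 0.05, and the lowest was 0.0853. Over all genes 124 were called, or 0.945%. At an unadjusted p under 0.05 there were 8 members, 3 with higher and 5 with lower means in knockout, which is 14.5% of those tested against 16.7% of all genes (8.43% higher and 8.29% lower). The groups did not overlap in 12 members (21.8%), against 22.9% of all genes: 2 lay higher in knockout and 10 lower, where 11.9% and 11% of all genes did. Both combined shares are near the background. The median log2 fold change was -0.02 for members and 0.02 for all genes, with 26 members above 0 and 29 below, while 52.3% of all genes were above 0.

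The replicate number of the labels was taken to pair the libraries across the groups, although the labels state no such pairing. With that number as a block edgeR called 784 genes (5.98%, with 3.39% higher and 2.58% lower) and 3 of the 55 members (5.45%): Ctso was higher in knockout, and Atg5 and Atp6v0d1 were lower. Calls of members varied with the tool and scaling. DESeq2 called 594 of 13115 genes and 2 of 55 members, Atg5 and Atp6v0d1. A fit with no filter on low counts called 850 of 25772 genes and 3 of 62 members, Atg5, Atp6v0c and Ctso. Limma-voom called 84 of 13115 genes and no member. Unscaled library totals shift the median over all genes up by 0.41 on the log2 scale. They called 1528 of 13115 genes, among them 5 of 55 members, which were all higher: Atg12, Atg2b, Atp6v0c, Ctsd and Map1lc3a. Without control replicate 1, the male control, 461 of 13533 genes were called, and 2 of 55 members, Atp6v0d1 and Ctso. With sex as a covariate the knockouts are compared with control replicate 1 alone, and effect sizes of that fit are given by gene.

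For 46 of the 55 members the 95% interval of the fold change lay wholly within 2-fold in either direction, and for 25 within 1.5-fold. Of the 12 tested cathepsins only 7 had intervals within 2-fold.

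**Figure D2:**
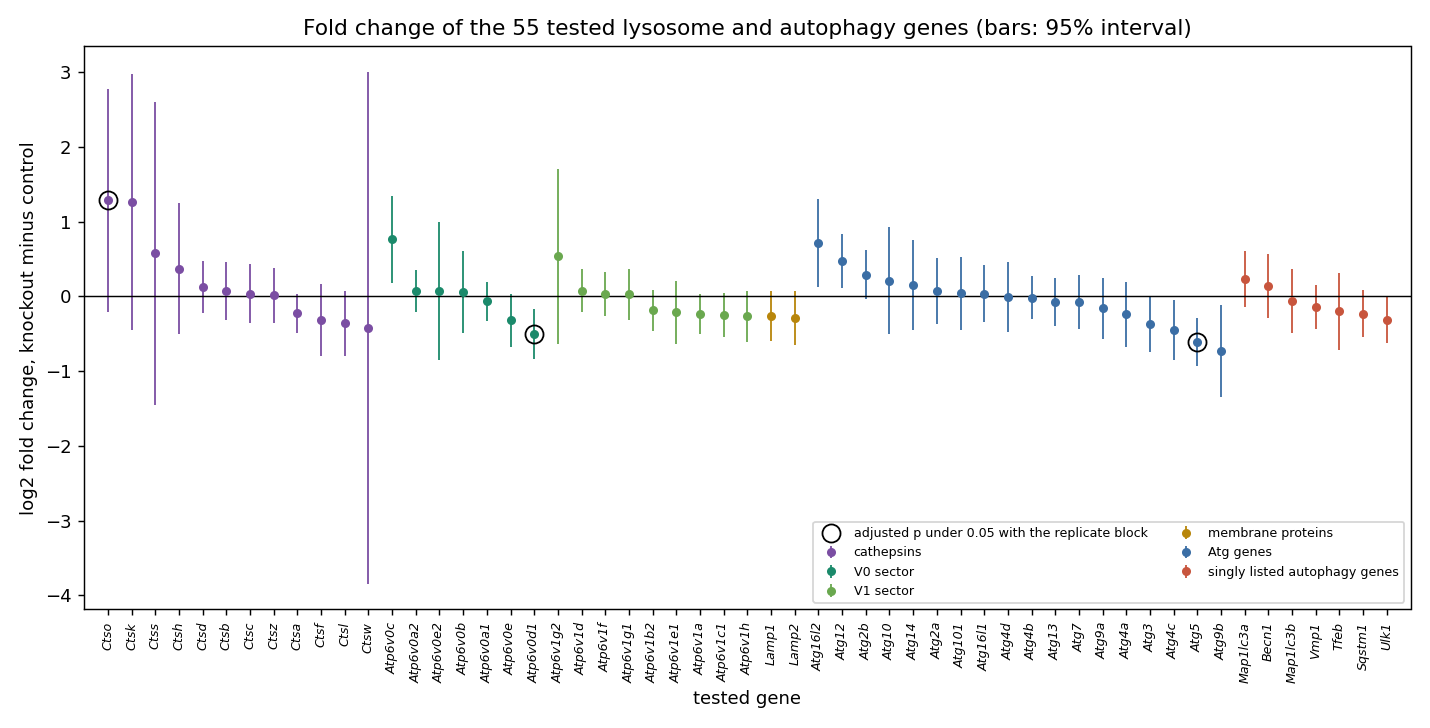
Log2 fold change of the 55 tested members, knockout minus control, with 95% intervals from the edgeR fit, coloured by role. Black circles mark the 3 members with an adjusted p under 0.05 when the replicate number is a block (Ctso, Atp6v0d1 and Atg5). The intervals are from the fit without the block, and most of them include 0, that of Ctso among them.

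Of the 18 cathepsins 12 were tested, and with edgeR's test as used for all genes none was called without the block. The fit with no filter and that without control replicate 1 called Ctso, and library totals called Ctsd. Their log2 fold changes ran from -0.42 to 1.28 with a median of 0.05. Ctsb, the trypsinogen-activating protease, had control values of 90.5, 80.9 and 71.7 CPM and knockout values of 90.1, 69.2 and 95.9 CPM. Knockout values lay on both sides of the controls, and the log2 fold change was 0.07 with a 95% interval from -0.32 to 0.46 (edgeR adjusted p = 0.893). Ctsl, its trypsinogen-degrading counterpart, had control values of 74.7, 87.5 and 98.2 CPM and knockout values of 59.9, 85.1 and 57.5 CPM. Knockout replicates 1 and 3 were lower than every control and knockout replicate 2 was among the controls, with a log2 fold change of -0.36 (interval -0.80 to 0.07, edgeR adjusted p = 0.394).

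The ratio of Ctsb to Ctsl does not depend on the scaling of a library. Per length the control ratios were 1.30, 0.991 and 0.783 and the knockout ratios 1.61, 0.872 and 1.79. The highest values were in knockout replicates 3 and 1, and the groups overlapped through control replicate 1 and knockout replicate 2. Ctsd, which can itself activate cathepsin B, had control values of 47.6, 62.4 and 51.4 CPM and knockout values of 64.1, 52.8 and 59.3 CPM. The groups overlapped through control replicate 2 alone, which lay between knockout replicates 3 and 1 (log2 fold change 0.13, interval -0.23 to 0.48, edgeR adjusted p = 0.757).

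The groups did not overlap in 1 of the 12 tested cathepsins (8.33%), against 22.9% of all genes. This was Ctsa, a protease that also shields other lysosomal enzymes from degradation. It had control values of 25.1, 25.5 and 26.8 CPM and knockout values of 21.8, 21.9 and 22.4 CPM, a small and even difference (log2 fold change -0.23, SE 0.11, edgeR adjusted p = 0.364). It was named after its values were seen, and its promoter holds both CLEAR matches shown above. It overlaps Pltp and Neurl2 in the annotation, and unstranded counts cannot assign reads shared with them.

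Ctso, a broadly expressed papain-type cathepsin, had control values of 2.80, 0.410 and 0.908 CPM and knockout values of 4.36, 2.71 and 3.08 CPM. Control replicate 1 lay among the knockouts, and in every same-numbered pair the knockout was higher. The log2 fold change was 1.28 (SE 0.63, edgeR adjusted p = 0.370), and with the block 1.54 (SE 0.36, edgeR adjusted p = 0.0333). With sex as a covariate, which leaves control replicate 1 as the only control compared, it was 0.27. Without control replicate 1 it was 2.32 (edgeR adjusted p = 0.0276), but that fit sets female controls against male knockouts.

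Ctss, Ctsh, Ctsk and Ctsw, cathepsins of immune or bone-resorbing cells, varied widely within both groups. Ctss, a cathepsin of antigen-presenting cells, had control values of 6.67, 1.48 and 1.56 CPM and knockout values of 6.45, 1.77 and 6.35 CPM. Control replicate 1 and knockout replicates 1 and 3 were high and the other 3 libraries low. The same 3 libraries had the highest sums of macrophage markers, given above. They were also highest for 11 stromal and endothelial markers (control sums of 135, 31.6 and 48.7 CPM, knockout sums of 156, 38.9 and 112 CPM) and for 8 dendritic and antigen-presenting markers (control sums of 166, 32.1 and 11.2 CPM, knockout sums of 118, 22.6 and 40.8 CPM). Ctsh showed the same split, with control values of 10.04, 3.98 and 4.65 CPM and knockout values of 9.29, 6.08 and 8.84 CPM. Ctsk, the collagen-degrading cathepsin of osteoclasts and fibroblasts, had control values of 0.409, 0.0410 and 0.327 CPM and knockout values of 0.857, 0.285 and 0.777 CPM. Among tested members it had the largest positive fold change after Ctso (log2 1.27), with an interval from -0.45 to 2.98 (edgeR adjusted p = 0.451). Ctsw, a cathepsin of cytotoxic lymphocytes, had another pattern, with both replicates numbered 1 high and knockout replicate 3 low. Its control values were 2.27, 0.164 and 0.0363 CPM and its knockout values 1.39, 0.314 and 0.161 CPM. The 11 B and T cell markers had control sums of 77.0, 10.2 and 1.89 CPM and knockout sums of 35.5, 5.22 and 2.84 CPM. Of the 12 macrophage markers 11 were tested, all 11 with higher means in knockout, 0 were called without the block and 4 with it. The part of these cell types' markers in the cathepsin values was not tested.

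**Figure D3:**
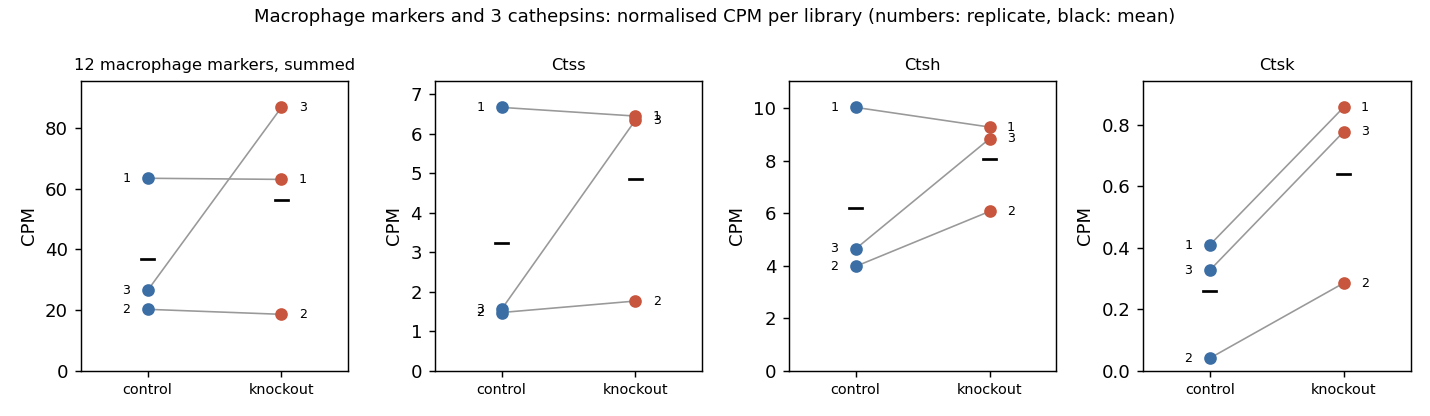
Normalised CPM in each library for 12 macrophage markers summed and for Ctss, Ctsh and Ctsk, with control in blue and knockout in red; numbers are replicates, lines join equal numbers and black bars are group means. Control replicate 1 and knockout replicates 1 and 3 are highest for the marker sum, Ctss and Ctsh.

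Of the 23 pump genes 16 were tested, 7 in V0 and 9 in V1. With edgeR's test as used for all genes none was called without the block, and 1, Atp6v0d1, was with it. That is 6.25% of the tested pump genes, against 5.98% of all genes. DESeq2 also called Atp6v0d1, and Atp6v0c was called with no filter and with library totals. The median log2 fold change was 0.06 for V0 and -0.19 for V1, against 0.02 for all genes. Summed over a sector, V0 genes gave 112 CPM ± 15.7 (SD, n = 3) in control and 111 ± 10.98 in knockout, and V1 genes 148 ± 11.98 and 135 ± 7.11. Both pairs of sums overlapped.

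Atp6v0d1, the subunit that links the V0 rotor to the V1 stalk, was the pump gene called with the block. It had control values of 21.9, 27.5 and 28.7 CPM and knockout values of 16.7, 18.1 and 19.9 CPM. Every control was above every knockout, with a log2 fold change of -0.51 (SE 0.15) and an edgeR adjusted p of 0.142 without and 0.0443 with the block. No other gene overlaps it in the annotation. Library totals in place of TMM scaling, under which the median over all genes shifts up by 0.41, gave -0.08 (edgeR adjusted p = 0.641). With the sex covariate, which leaves control replicate 1 as the only control compared, the log2 fold change shrank to -0.26.

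The V1 genes Atp6v1a, Atp6v1b2 and Atp6v1c1 also had all knockouts below all controls, by small amounts, and were named after their values were seen. With Atp6v0d1 that made 4 of the 16 tested pump genes (25%) without overlap, all lower. Of all genes 22.9% had no overlap, 11% lower and 11.9% higher. Atp6v1a, the catalytic subunit, had 16.2, 14.2 and 14.8 CPM in control and 12.8 CPM in each knockout library (log2 fold change -0.24, SE 0.12, edgeR adjusted p = 0.359). Atp6v1b2 differed by -0.19 (SE 0.12) and Atp6v1c1 by -0.25 (SE 0.13) on the log2 scale, neither of which was called. At the other end Atp6v1f, the highest V1 gene per length, had control values of 17.3, 20.5 and 17.9 CPM and knockout values of 19.5, 19.9 and 17.4 CPM (log2 fold change 0.03, interval -0.26 to 0.32). The V0 gene Atp6v0b varied most among the abundant subunits, from 23.6 to 37.2 CPM in control and from 23.8 to 40.7 CPM in knockout. It overlaps Gm12841 on the other strand, and both strands' counts came to 1.71 times its unstranded count, so these values leave out ambiguous reads.

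Atp6v0c, which encodes the ring of proton-carrying subunits, had a higher mean in knockout that did not pass the test, and its counts are uncertain. It had control values of 7.93, 10.8 and 14.2 CPM and knockout values of 19.9, 22.3 and 13.7 CPM, with knockout replicate 3 among the controls (log2 fold change 0.76, SE 0.25, edgeR adjusted p = 0.197). Its processed pseudogene Atp6v0c-ps2, an intronless copy of the messenger RNA, had a lower mean in knockout that also did not pass, with control values of 6.61, 7.88 and 3.23 CPM and knockout values of 0.268, 0.143 and 3.22 CPM. The libraries low for the gene were high for the copy, and both replicates numbered 3 had nearly equal values of each. Added together the counts gave control values of 14.5, 18.7 and 17.5 CPM and knockout values of 20.2, 22.5 and 16.9 CPM, a log2 fold change of 0.23 (SE 0.15, edgeR adjusted p = 0.505). The sum was taken after the values were seen. How reads of the gene and the copy were divided was not tested.

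**Figure D4:**
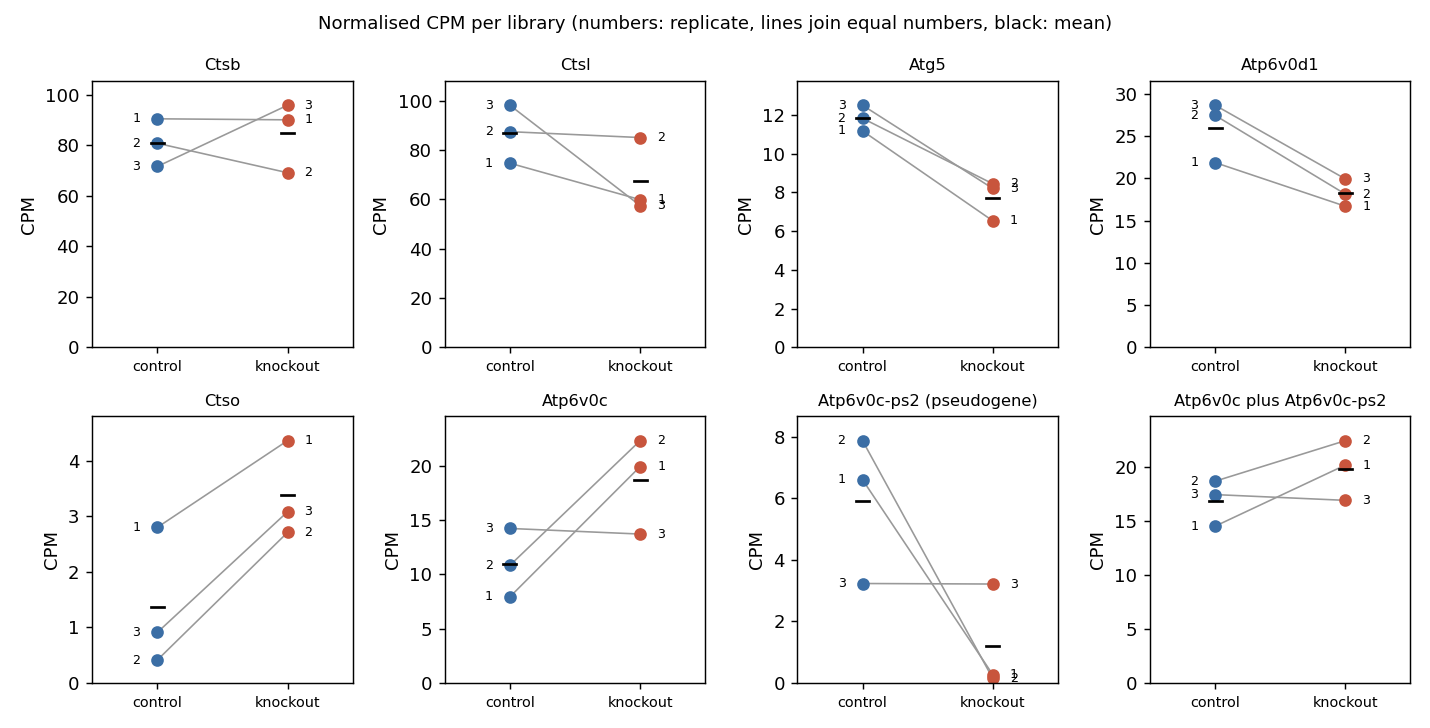
Normalised CPM in each library for 6 members, for the pseudogene Atp6v0c-ps2 and for its sum with Atp6v0c; numbers are replicates, lines join equal numbers, black bars are group means and each axis starts at 0. Atg5 and Atp6v0d1 are lower and Ctso is higher in the knockout of every pair, while the summed Atp6v0c values overlap.

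All 18 Atg genes were tested. With edgeR's test as used for all genes none was called without the block and 1, Atg5, with it. That is 5.56% of the Atg genes, against 5.98% of all genes. DESeq2 and the fit with no filter also called Atg5. The median log2 fold change was -0.01. Atg5, which is joined to ATG12 to form the enzyme that attaches LC3 to membranes, had control values of 11.2, 11.8 and 12.5 CPM and knockout values of 6.53, 8.44 and 8.20 CPM. Every knockout lay below every control, and the knockout mean was 0.653 times the control mean. The log2 fold change was -0.61 (SE 0.14), with an edgeR adjusted p of 0.0853 without and 0.0260 with the block, and DESeq2 gave an adjusted p of 0.0258. Library totals, under which the median over all genes shifts up by 0.41, gave -0.20 (edgeR adjusted p = 0.364). With sex as a covariate, which leaves control replicate 1 as the only control compared, the log2 fold change was -0.53. Every fit that left out 1 library gave a lower level in knockout without a call.

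Of the partners of ATG5 in that enzyme none was called without or with the block, while library totals called Atg12. The gene Atg12, whose ubiquitin-like protein is joined to ATG5, had control values of 4.56, 4.47 and 5.59 CPM and knockout values of 6.40, 7.22 and 6.67 CPM. All its knockouts lay above all controls (log2 fold change 0.47, SE 0.16, edgeR adjusted p = 0.189). Atg16l1, the membrane-targeting subunit, had a log2 fold change of 0.03 (interval -0.35 to 0.41). Its relative Atg16l2 had control values of 3.46, 3.41 and 2.40 CPM and knockout values of 5.30, 6.36 and 3.54 CPM, a log2 fold change of 0.71 (SE 0.26, edgeR adjusted p = 0.220). Atg12 was named after its values were seen. Atg16l2 overlaps Fchsd2 on the other strand, so part of its reads can be left uncounted as ambiguous.

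Among the enzymes of LC3 attachment, Atg7, which activates both ATG12 and LC3, had a log2 fold change of -0.08 (interval -0.44 to 0.28). Atg3, which transfers LC3 and was the highest Atg gene per length, had control values of 18.5, 25.1 and 23.5 CPM and knockout values of 14.4, 19.1 and 18.4 CPM (log2 fold change -0.37, SE 0.17, edgeR adjusted p = 0.310). Knockout replicate 2 lay within the controls, and in each pair the knockout was lower. Atg9b, a lipid scramblase of vesicles that feed the growing membrane, had the most negative fold change of the tested members, with control values of 2.14, 3.45 and 2.69 CPM and knockout values of 1.74, 1.60 and 1.63 CPM (log2 fold change -0.73, SE 0.27, edgeR adjusted p = 0.230). It overlaps Nos3 on the other strand.

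The initiating genes gave no call. Ulk1, the starting kinase, had control values of 21.2, 23.2 and 27.6 CPM and knockout values of 19.0, 20.3 and 18.4 CPM, with no overlap (log2 fold change -0.32, SE 0.14, edgeR adjusted p = 0.292). Becn1 differed by 0.14 (interval -0.28 to 0.57), but it overlaps Cntd1, and adding both strands' counts gave 2.05 times its unstranded count, so many of its reads were left out as ambiguous. Vmp1, a membrane protein induced in pancreatitis, had control values of 22.8, 25.9 and 23.9 CPM and knockout values of 19.9, 21.6 and 24.0 CPM (log2 fold change -0.14, interval -0.44 to 0.15). It overlaps the microRNA gene Mir21a in the annotation.

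The LC3 genes and Sqstm1 were not called without or with the block either, while library totals called Map1lc3a. Map1lc3b had control values of 63.2, 85.9 and 91.8 CPM and knockout values of 75.1, 65.4 and 90.01 CPM, with the groups fully mixed (log2 fold change -0.06, interval -0.49 to 0.37). Map1lc3a had a log2 fold change of 0.23 (interval -0.14 to 0.61). Sqstm1, whose protein p62 carries ubiquitinated cargo into autophagosomes, had control values of 83.6, 87.8 and 93.3 CPM and knockout values of 77.5, 67.7 and 80.2 CPM. All knockouts lay below all controls, by a log2 fold change of -0.23 (SE 0.14, edgeR adjusted p = 0.457). Transcript counts do not measure p62 protein or autophagic flux.

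Tfeb had control values of 4.97, 4.35 and 3.89 CPM and knockout values of 4.93, 3.62 and 2.95 CPM, which overlapped (log2 fold change -0.20, interval -0.71 to 0.31). Of the 6 members with a CLEAR core shown above, 5 had lower means in knockout and Ctsd a higher one. Their log2 fold changes ran from -0.51 to 0.13 with a median of -0.28, beside -0.02 for the other tested members with a promoter in the table. A link between these values and Tfeb was not tested. With edgeR's test as used for all genes none of the 6 was called without the block, while DESeq2 called Atp6v0d1 and library totals called Ctsd.

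The lysosomal membrane proteins Lamp1 and Lamp2, which form the coat of the organelle, were not called. Lamp1 had control values of 97.1, 125 and 117 CPM and knockout values of 91.6, 97.98 and 92.5 CPM, and Lamp2 had control values of 42.3, 54.2 and 58.5 CPM and knockout values of 38.7, 43.6 and 44.4 CPM. In each gene control replicate 1 lay among the knockouts and control replicates 2 and 3 above them. The log2 fold changes were -0.26 (interval -0.60 to 0.07) and -0.29 (interval -0.65 to 0.07). Control replicates 2 and 3 are the female libraries. With sex as a covariate, which leaves control replicate 1 as the only control compared, the log2 fold changes were -0.046 for Lamp1 and -0.00051 for Lamp2. Per kilobase of merged exons, the ratio of Lamp1 to Lamp2 was 7.86 ± 0.629 in control and 7.97 ± 0.511 in knockout (SD, n = 3). Its size depends on the length used: control levels were 50.7 and 14.3 CPM per kb of the longest transcript, and 92.8 and 41.4 CPM per kb of coding sequence.

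Other genes of the same pathways were taken from 10 lists holding 187 genes, of which 174 were tested. In edgeR's test 3 were called, where 0.945% of all genes were: Gusb rose, and Npc2 and Cst3 fell. With the block 8 were called (4.60%, against 5.98% of all genes), 2 higher and 6 lower. The lists' median log2 fold changes were 0.02 for other lysosomal hydrolases, -0.17 for other lysosomal membrane and lumenal carrier proteins, -0.09 for the pump's a3 and accessory subunits and 0.23 for cysteine protease inhibitors. They were -0.04 for sorting to the lysosome, -0.02 for autophagy initiation, -0.35 for the 3 other ATG8 proteins, -0.24 for autophagy receptors, -0.01 for fusion and -0.01 for TFEB relatives and lysosomal mTORC1 regulators.

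Cst3 encodes cystatin C, a secreted inhibitor of cathepsins B, L and other papain-type proteases. It had control values of 409.5, 622.5 and 540.1 CPM and knockout values of 214, 244 and 203 CPM. All knockouts lay far below all controls, a log2 fold change of -1.25 (SE 0.20, edgeR adjusted p = 0.0252). The cytosolic inhibitor gene Cstb had a log2 fold change of 0.23 and was not called (edgeR adjusted p = 0.522). Set against its targets, Cst3 stood at 2.48, 3.70 and 3.18 times the summed CPM of Ctsb and Ctsl in the controls and at 1.43, 1.58 and 1.32 times in the knockouts. These ratios, taken after the values were seen, do not depend on scaling, and the groups did not overlap.

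Npc2, a lumenal protein that hands cholesterol to the lysosomal membrane, had control values of 15.6, 14.3 and 14.4 CPM and knockout values of 7.47, 5.53 and 5.33 CPM, a log2 fold change of -1.27 (SE 0.16, edgeR adjusted p = 0.0116). Gusb, the hydrolase beta-glucuronidase, had control values of 13.9, 12.8 and 10.9 CPM and knockout values of 24.4, 20.3 and 30.3 CPM, a log2 fold change of 0.996 (SE 0.17, edgeR adjusted p = 0.0413). In both genes the groups were well apart. With the block edgeR also called Hexa higher (log2 fold change 0.55), another hydrolase, and Acp5 (-2.19), Slc17a5 (-0.66), Tmem192 (-0.75) and Vps35 (-0.50) lower. With sex as a covariate, which leaves control replicate 1 as the only control compared, the log2 fold changes of Cst3, Npc2 and Gusb were -0.89, -1.35 and 0.85. Of the 6 fits that left out 1 library, Cst3 kept its call only without control replicate 1, and Gusb only without control replicate 1 or knockout replicate 2. The fit without control replicate 1 sets female controls against male knockouts. Npc2 lost its call without control replicate 2 and without knockout replicate 3. Gusb also lost it with limma-voom (adjusted p = 0.0576), without robust fitting (edgeR adjusted p = 0.0566) and on reverse-strand counts (edgeR adjusted p = 0.0552).

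**Figure D5:**
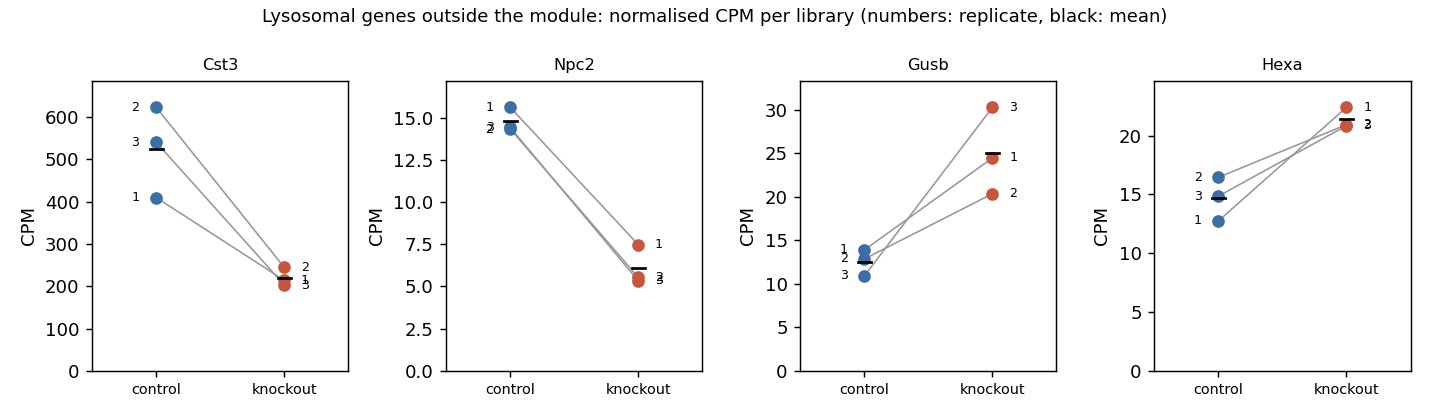
Normalised CPM in each library for Cst3, Npc2, Gusb and Hexa, with control in blue and knockout in red; numbers are replicates, lines join equal numbers and black bars are group means. No knockout point overlaps a control point: Cst3 and Npc2 lie lower in knockout, and Gusb and Hexa higher.

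The list of trypsinogens and trypsin inhibitors, the substrates and guards that cathepsins act beside, had 8 tested genes. Of these edgeR called 1, Prss3, higher (log2 fold change 2.88, adjusted p = 0.00167), where 0.945% of all genes were called. With the block it also called Try5 higher and Try10 and Spink1 lower, which made 50% of the list against 5.98% of all genes. Trypsinogen genes resemble each other so closely that reads can be split between copies, which makes these counts uncertain.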

How the data were processed

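The authors deposited 1 table per library with raw whole-number counts per Ensembl gene. STAR 2.7.10a and build GRCm39 (mm39) are named in the submitters' processing notes, and the annotation is not given in the sources used here. The unstranded column was used. Its first 4 rows, which name no gene, were left out: unmapped reads made up 9.70% to 13.0% of all reads, multimapping 21.6% to 28.4%, reads outside genes 0.893% to 2.18% and ambiguous reads 3.29% to 3.63%.

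Names, gene classes, overlaps and exon lengths came from GENCODE M21 (GRCm38), which held 52133 of 55414 identifiers. Counts were tested with edgeR 4.0.16 in R 4.3.3: filterByExpr, TMM, estimateDisp, robust glmQLFit and glmQLFTest, group as the only term, Benjamini-Hochberg adjustment over 13115 genes, and a call at an adjusted p under 0.05. The standard error is the log2 fold change divided by the square root of F, and 95% intervals use the fit's degrees of freedom, unadjusted. CPM was computed with TMM library sizes and no prior count.

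Same-numbered libraries deviated together from their group means across genes (correlations 0.630, 0.455 and 0.285), so the number was taken to pair them. Control replicate 3 and knockout replicate 2 also correlated above 0 (0.210), and all other differently numbered pairs below 0. The labels state no pairing, and this choice was read from the same counts as the calls. Alternatives used DESeq2 1.42.0, limma 3.58.1, other scalings and filters, either strand, the block, sex and fewer libraries.

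Members and lists were chosen with earlier results of these data known. Named members were those listed singly, Ctsb, Ctsd and Ctsl, any called without or with the block, the 3 largest rises and falls, and the highest and lowest per length in each role. Other members were named after their values were seen. Of the other pathway lists, genes called without or with the block were named. Of 8 marker lists for acinar, ductal, macrophage, lymphocyte, dendritic, stromal, islet and fat cells, 0 had a member called without the block; with it, acinar, ductal, macrophage, lymphocyte, islet and fat cell lists had 2, 5, 4, 1, 1 and 1. Reads carry no molecular identifiers, so count limits cover counting error only.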

Additional observations from a re-analysis of the deposited data

How the results depend on the processing

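With 3 libraries a group, genes called numbered 124, and the members called 0. Library totals gave 1528 genes, 5 members and 22 genes of the other pathway lists (3 as reported), no filter gave 850, 3 and 8, and DESeq2 594, 2 and 7. The replicate block gave 784, 3 and 8, and the block without pair 1 gave 396, 1 and 5 and without pair 3 gave 837, 2 and 8. The block without pair 2 left 1 list gene. A minimum of 10 counts gave 210 genes, and the sex covariate 21 genes and 0 list genes. Leaving out 1 library gave 20 to 461 genes, 0 to 2 members and 0 to 4 list genes. At an unadjusted p under 0.05, edgeR had 8 members. Trip12's log2 fold change was -0.49 with library totals, -1.05 with sex, -1.02 with the block without pair 2, each without a call, and -0.98 to -0.82 without 1 library, called only without control replicate 1.

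Some log2 fold changes of members changed sign, none of them called in the fit with group alone. Library totals moved values upward by 0.41 at the median over the 13115 tested genes, not in these members alone. They gave Lamp1 0.16, Lamp2 0.14, Sqstm1 0.19, Map1lc3b 0.38, Ulk1 0.11, Tfeb 0.20, Vmp1 0.27, Ctsl 0.059 and Atg3 0.060. The sex covariate gave Map1lc3b 0.28, Ctsb -0.090 and Atp6v0e2 -0.45. Forward-strand counts gave Becn1 -0.015, Atp6v0b -0.11, Atp6v1f -0.020 and Atp6v1g2 -0.11, and reverse-strand counts Becn1 -0.028 and Atp6v1g2 -0.19. The block without pair 1 gave Ctsd -0.038, Atp6v0b -0.23 and Atp6v1f -0.062, without pair 2 Map1lc3b 0.11 and Becn1 -0.019, and without pair 3 Ctsb -0.11 and Atp6v0e2 -0.21. Without 1 library the ranges were Map1lc3b -0.23 to 0.044, Becn1 -0.070 to 0.30, Ctsb -0.026 to 0.20, Atp6v0b -0.14 to 0.25, Atp6v0e2 -0.11 to 0.41 and Atp6v1f -0.045 to 0.10. The causes were not tested. The block changed the calls given in the report and no other call of a named member or list gene.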
